A study of Ovis aries with 4 samples.

Results

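FGF10-positive fibroblasts of the sheep mammary gland were described from droplet single-cell RNA libraries of 4 lactating ewes, with 1 library per ewe. The title LL, late lactation, was carried by 2 ewes and the title LH by the other 2. The series text names peak and late lactation with 2 ewes each, so LH was taken as peak lactation by elimination, since the titles do not spell it out. No treatment, genotype, breed or age is given in the sources used here, and nothing says at what time of day the glands were taken. A cell counted as a fibroblast when at most 20% of its unique molecular identifiers (UMIs, the counted RNA molecules) came from the 13 mitochondrial protein genes, it held at least 5 UMIs of DCN making up at least 30 per 10000 of its UMIs, and it held none of CD3E, EPCAM or C1QA. It counted as FGF10-positive with at least 1 FGF10 UMI and as FGF10-zero otherwise. By this rule 847 of 3585 gated fibroblasts were FGF10-positive and 2738 were FGF10-zero, out of 38886 barcodes within the mitochondrial limit and 39246 in all. The cells were thus chosen by their measured UMIs of DCN, FGF10, CD3E, EPCAM and C1QA and of the 13 mitochondrial genes. The values of all these genes are given as description, without p-values. DCN, FGF10, CD3E, EPCAM and C1QA were left out of the tests across genes, whereas the mitochondrial genes stayed in them.

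FGF10 is a secreted fibroblast growth factor that mesenchymal cells make and that acts on neighbouring epithelium through the epithelial splice form of the receptor FGFR2. In the mammary gland it is known for its part in forming the embryonic bud and for its production by stroma around ducts and alveoli. FGF7, a close relative also made by stroma, uses the same receptor form. Decorin, encoded by DCN, is a small proteoglycan that binds collagen fibrils and is a common marker of fibroblasts. PTGS2, the inducible enzyme of prostaglandin synthesis, and LPAR1, a receptor for lysophosphatidic acid, were the further markers set for these cells.

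The FGF10-positive fibroblasts were unevenly spread over the ewes. LH replicate 1 held 85, LH replicate 2 held 3, LL replicate 1 held 379 and LL replicate 2 held 380. Library totals ran from 28015149 to 65339993 UMIs and the median barcode held 2693 to 3294 UMIs. No barcode of an FGF10-positive fibroblast was found in 2 libraries, whereas 15 to 37 of all kept barcodes were shared by each pair of libraries. LH replicate 2 was too sparse for summed levels, so the tests across genes used LH replicate 1 and both LL libraries, and the stage comparison had a single LH ewe.

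Genes outside the rule placed these cells with fibroblasts. In CPM (a gene's UMIs scaled to a common library total, here without further scaling), gelsolin (GSN), an actin-severing protein abundant in fibroblasts, stood at 10341 and 8252 in the FGF10-positive cells of the LH ewes and at 8722 and 9312 in those of the LL ewes, replicate 1 before replicate 2. In the barcodes outside the fibroblast gate it stood at 311, 513, 963 and 451 CPM. SERPINF1, the secreted factor PEDF, stood at 1027, 1159, 468 and 550 CPM in the FGF10-positive cells against 8.97, 0.588, 16.9 and 5.64 CPM outside the gate. The gelatinase MMP2 stood at 390, 818, 510 and 443 CPM against at most 13.7 CPM outside. Each of these genes was higher in the FGF10-positive cells than outside the gate in 4 of 4 libraries.

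The markers LPAR1 and FGF7 followed the gate, and PTGS2 did so in 3 libraries. LPAR1 stood at 455, 409, 394 and 326 CPM in the FGF10-positive cells and at 20.2 to 42.8 CPM outside the gate. FGF7 stood at 264, 750, 189 and 239 CPM against 8.89 to 30.3 CPM. PTGS2 stood at 533, 0, 330 and 186 CPM against 6.13 to 32.3 CPM, and its 0 belongs to the 3 cells of LH replicate 2, where 3 UMIs would have made 205 CPM. Of the FGF receptor and collagen lists, with 22 and 20 genes, none carried a symbol in the files, so neither the receptors nor the collagens could be read by name.

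Markers of other cell types were detected in the FGF10-positive cells. Of 8 T cell markers with a symbol, 3 to 5 were detected per library in the FGF10-positive cells, and their summed level was 27.0 CPM in LH replicate 1 and 9.85 and 9.70 CPM in LL replicates 1 and 2. CD3D and CTLA4 were at 0 in all 3. Of 11 luminal epithelial markers, 4, 10 and 6 were detected, with sums of 135, 290 and 171 CPM. In LH replicate 1 the caseins CSN1S1, CSN1S2, CSN2 and CSN3 and LALBA were at 0. The 5 endothelial markers with a symbol summed to 27.0, 53.6 and 52.2 CPM and the 4 macrophage markers to 2.45, 4.31 and 2.98 CPM. The 7 markers of pericytes, smooth muscle and myoepithelium summed to 988, 862 and 585 CPM, mostly from IGFBP7, and OXTR was at 0 in all 3. Without further scaling IGFBP7 stood at 664, 341, 529 and 341 CPM in the FGF10-positive cells of the 4 libraries and at 159, 480, 544 and 192 CPM outside the gate, so it did not set the gate apart. CD3E, EPCAM and C1QA are 0 by the rule.

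About 1 to 4 in 10 gated fibroblasts carried FGF10, and the LL ewes differed from each other. The FGF10-positive share of gated fibroblasts was 37.0% in LH replicate 1 (85 of 230, exact Clopper-Pearson 95% interval 30.7 to 43.5%) and 12% in LH replicate 2 (3 of 25, 2.55 to 31.2%). It was 18.2% in LL replicate 1 (379 of 2078, 16.6 to 20.0%) and 30.4% in LL replicate 2 (380 of 1252, 27.8 to 33.0%). The intervals cover counting error only. LL replicate 1 stood below LL replicate 2 with intervals that do not overlap, and both LL values lay between the LH values. The intervals of the LH ewes overlap, with only 25 gated cells in LH replicate 2.

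The stage means were 24.5% ± 17.6 (SD, n = 2) for LH and 24.3% ± 8.57 (SD, n = 2) for LL. LL minus LH was -0.183 points, with an exact two-sided permutation p of 1, in a design whose smallest possible p is 0.333. Leaving out a library turned the sign: the difference was 12.3 points without LH replicate 1 and 5.87 points without LL replicate 1, against -12.7 without LH replicate 2 and -6.24 without LL replicate 2. With each gated cell of at least 2000 UMIs thinned to 2000 UMIs, the shares were 30.4% of 204, 20.0% of 15, 13.0% of 1752 and 25.8% of 913 cells in the same order. The order of LH replicate 1, LL replicate 2 and LL replicate 1 was kept at equal depth.

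**Figure D1:**
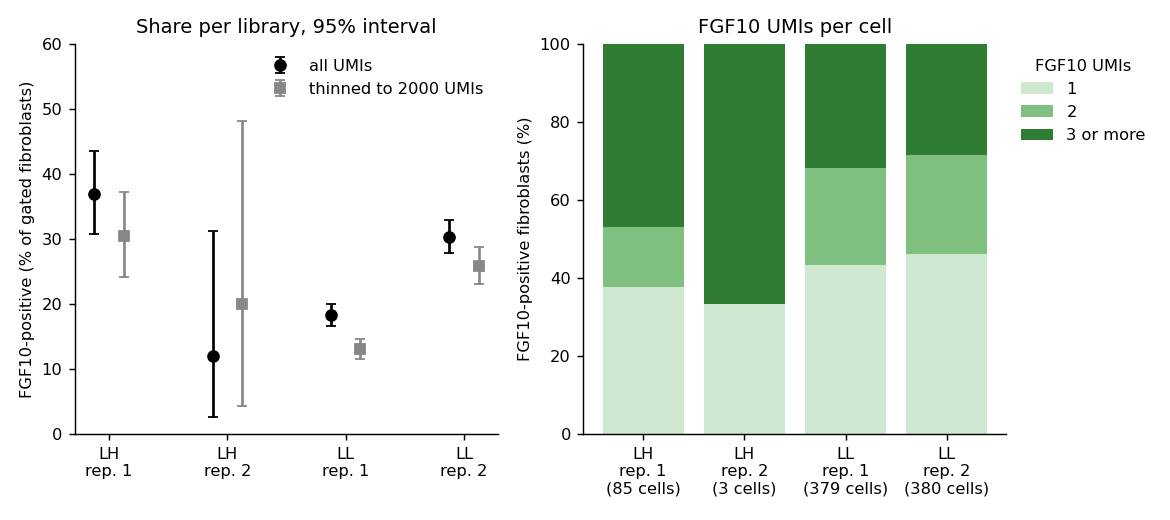
Left, FGF10-positive cells as a percentage of gated fibroblasts in each library, from all UMIs (black) and from cells thinned to 2000 UMIs (grey), with exact 95% binomial intervals. Right, FGF10-positive cells of each library split by their number of FGF10 UMIs; LH replicate 1 has the highest share on the left at 37.0%, and LH replicate 2 rests on 3 cells.

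As a share of all kept barcodes, FGF10-positive fibroblasts made up 1.45% in LH replicate 1, 0.0320% in LH replicate 2, 3.00% in LL replicate 1 and 3.44% in LL replicate 2. Each late-lactation ewe thus had a higher share than either LH ewe. The means were 0.742% ± 1.00 (SD, n = 2) in LH and 3.22% ± 0.315 (SD, n = 2) in LL, a difference of 2.48 points with an exact two-sided permutation p of 0.333, the smallest that 2 against 2 allows. Gated fibroblasts of either kind made up 3.93%, 0.267%, 16.4% and 11.3% of the kept barcodes in the same libraries, so the whole gate moved with this share. A library's share of fibroblasts can also depend on how the tissue was dissociated, which was not tested.

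Most FGF10 in the libraries with many fibroblasts lay in these cells. They held 88.6% of 315 FGF10 UMIs of the kept barcodes in LH replicate 1, 22.0% of 50 in LH replicate 2, 72.0% of 1285 in LL replicate 1 and 82.0% of 1103 in LL replicate 2. Cells that should lack the gene gave the background. Over all libraries FGF10 was seen in 4 of 4998 CD3E-positive cells without DCN (0.0800%, median 3089 UMIs) and in 20 of 6739 EPCAM-positive cells without DCN (0.297%, median 8793 UMIs). By library these shares ran from 0 to 0.362% in the CD3E-positive cells, the highest in LL replicate 2, and from 0.101% in LH replicate 2 to 0.764% in LL replicate 1 in the EPCAM-positive cells. The FGF10-positive cells themselves had medians of 4402, 4356, 3577 and 2890 UMIs, with FGF10-zero fibroblasts at 3399, 2290, 3578 and 2644 UMIs. In LH replicate 1 the FGF10-positive cells were thus deeper, whereas in LL replicate 1 the medians were nearly equal.

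The amount of FGF10 per cell varied widely. In CPM without further scaling, FGF10 stood at 641 and 750 in the FGF10-positive cells of the LH ewes, at 601 and 710 in those of the LL ewes, and at 0.696 to 6.93 in the barcodes outside the gate. The median FGF10-positive cell held 2 FGF10 UMIs in LH replicate 1 and in both LL libraries, and the highest held 18, 26 and 19. Exactly 1 UMI was found in 32 of 85, 1 of 3, 164 of 379 and 175 of 380 cells, and 3 or more in 40, 2, 121 and 108 cells. The share with 3 or more was 47.1% in LH replicate 1 (36.1 to 58.2%). It was 31.9% in LL replicate 1 (27.3 to 36.9%) and 28.4% in LL replicate 2 (23.9 to 33.2%). These shares are not corrected for depth, and the positive cells of these libraries had medians of 4402, 3577 and 2890 UMIs. Per 10000 UMIs of the cell, the median FGF10 level was 5.38, 5.40 and 5.79 in the same order. Each of these cells holds at least 1 FGF10 UMI by the rule, so the lowest level possible is higher in a shallower cell. These medians therefore do not compare the libraries at equal depth either. Because a cell with 1 FGF10 UMI counts as positive, some FGF10-zero cells will hold FGF10 RNA that was not sampled, and the contrast below sets detected against undetected.

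At the edges of the rule the numbers were small for DCN and large for FGF10. Among the FGF10-positive cells, 3 had exactly 5 DCN UMIs. Outside fell 8 cells with FGF10 and 4 DCN UMIs, within the mitochondrial limit and without CD3E, EPCAM or C1QA. These 8 were counted whether or not they reached 30 DCN UMIs per 10000. A DCN level of 30 to 35 per 10000 was held by 6 of the FGF10-positive cells, and 17 otherwise eligible cells lay under 30. Only 1 cell was lost to the mitochondrial limit alone. The median DCN level was 134, 162, 138 and 154 per 10000 in the FGF10-positive cells and 154, 191, 152 and 165 in the FGF10-zero cells. DCN set the gate, so these medians are description and no difference between the states is drawn from them.

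The question set by splitting the fibroblasts on FGF10 was which other genes differ with it within the same ewe. The UMIs of each state were summed per library and compared with the ewe as a block, so that both states come from the same 3 glands. Of 8865 genes tested, 54 passed an adjusted p of 0.05 (0.609%), 23 higher (0.259%) and 31 lower (0.35%) in FGF10-positive fibroblasts. Of the 398 tested genes with a symbol, 6 passed (1.51%): ACVR2A was higher, and the secreted proteins BGN, SERPINF1, IGFBP6 and IGFBP7 and the transcription factor BHLHE40 were lower. All 6 lay on the same side in 3 of 3 libraries, as 16.5% of all tested genes did on the higher and 16.7% on the lower side. Levels from here on are CPM scaled by TMM factors unless stated.

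**Figure D2:**
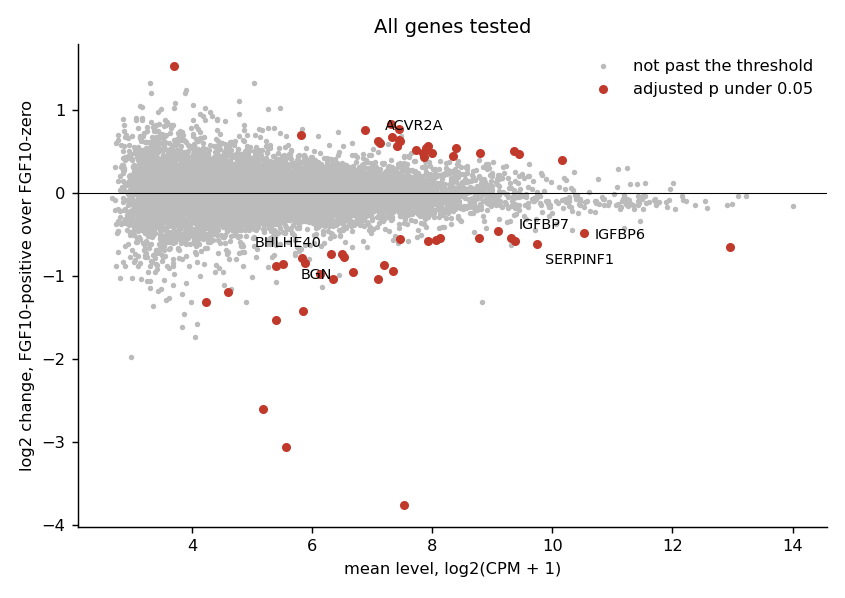
Each point is a gene of the comparison of FGF10-positive with FGF10-zero fibroblasts, with its mean level as log2(CPM + 1) on the x axis and its log2 change on the y axis. Red points are the 54 genes with an adjusted p under 0.05; the 6 with a symbol are labelled, with ACVR2A above 0 and the others below 0.

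ACVR2A, a type II receptor for activins and some bone morphogenetic proteins, was the only gene with a symbol that passed the threshold as higher. It stood at 189, 118 and 173 CPM in FGF10-positive fibroblasts of LH replicate 1, LL replicate 1 and LL replicate 2, and at 152, 70.2 and 110 CPM in the FGF10-zero fibroblasts. The positive cells were higher within each ewe, although the ranges of the states overlap across ewes. The log2 change was 0.63 ± 0.11 (SE), 1.54-fold, with an adjusted p of 0.0191. The call was lost against FGF10-zero cells matched in depth (adjusted p = 0.128), in DESeq2 (0.142) and without LL replicate 1 (0.116), each time with the level still higher in the positive cells.

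The other tested genes of the activin, bone morphogenetic protein and TGF-beta list did not pass. Of 8 tested, 1 passed as higher and none as lower, against 0.259% and 0.35% of all tested genes. Above 0 lay 4 and below 0 lay 4, and the median log2 change was -0.03 against 0.00182 over all genes. ID3, a target gene of bone morphogenetic protein signalling, stood at 334, 203 and 316 CPM in the positive and 358, 317 and 381 CPM in the zero cells, lower in 3 of 3 libraries with an adjusted p of 0.149. The ligand BMP4 stood at 46.6, 54.8 and 91.0 against 34.3, 77.2 and 84.4 CPM, with no common direction. The receptors BMPR1A and BMPR2 had log2 changes of 0.01 ± 0.10 and -0.08 ± 0.13 (SE), within 1 SE of 0.

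Of 6 tested genes of the list of fibroblast matrix and secreted proteins, 2 passed, BGN and SERPINF1, both lower in the FGF10-positive cells. Over all tested genes 0.35% passed as lower, and of those with a symbol 1.51% passed in either direction. The lists were chosen with earlier results of these data known, so such counts are description. The fitted log2 change was below 0 for all 6, as for 49.7% of all tested genes, with a list median of -0.57 against 0.00182 over all genes. Only 6 of the 48 listed genes carried a symbol. Biglycan (BGN), a small proteoglycan of the same family as decorin, stood at 85.8, 70.2 and 49.2 CPM in the positive and 132, 109 and 102 CPM in the zero cells. Every positive value lay below every zero value, and the log2 change was -0.78 ± 0.13 (SE), 1.71-fold lower, with an adjusted p of 0.0165. How many of all tested genes separate in this way was not counted, here or for the genes below. The call was lost in cells thinned to 2000 UMIs (adjusted p = 0.196), against depth-matched cells (0.0594), in DESeq2 (0.0905) and without LH replicate 1 (0.0618).

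SERPINF1 encodes PEDF, a secreted protein that restrains blood vessel growth. It stood at 1096, 443 and 523 CPM in the positive and 1554, 840 and 696 CPM in the zero cells of LH replicate 1, LL replicate 1 and LL replicate 2. Of the libraries fitted, LH replicate 1 was highest in both states. LH replicate 2 was not fitted and, without further scaling, stood at 1159 CPM in its 3 positive cells and 2421 CPM in its zero cells. On that scale LH replicate 1 stood at 1027 and 1436 CPM. The log2 change was -0.62 ± 0.10 (SE), 1.54-fold lower, with an adjusted p of 0.0136 and of 0.0690 without LH replicate 1.

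The remaining 4 genes of that list are a matricellular protein, a WNT antagonist, a collagen chaperone and an actin-severing protein. CCN2, a matricellular protein induced by TGF-beta, stood at 31.9, 19.1 and 35.8 against 52.4, 33.0 and 62.0 CPM, lower in 3 of 3 libraries (adjusted p = 0.0678). SFRP2, a secreted WNT antagonist, stood at 169, 70.8 and 169 against 264, 129 and 189 CPM (adjusted p = 0.102). SPARC, a collagen-binding glycoprotein, stood at 351, 280 and 410 against 342, 379 and 717 CPM, lower in the LL libraries only (adjusted p = 0.113). GSN had a log2 change of -0.04 ± 0.06 (SE), within 1 SE of 0.

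Insulin-like growth factor binding proteins, secreted carriers that hold or release these growth factors, gave a pair of the calls. Of 10 tested genes of the growth factor axis and hormone receptor list, 2 passed as lower and none as higher, with a median of -0.09. Over all tested genes these shares were 0.35% and 0.259%. IGFBP6 stood at 1126, 1268 and 1261 CPM in the positive and 1596, 1905 and 1632 CPM in the zero cells. Every positive value lay below every zero value, and the log2 change was -0.49 ± 0.07 (SE), 1.40-fold lower, with an adjusted p of 0.0120, or 0.0862 without LH replicate 1. IGFBP7 stood at 709, 502 and 324 against 1142, 624 and 517 CPM, a log2 change of -0.55 ± 0.09 (SE) or 1.46-fold lower, with an adjusted p of 0.0167, or 0.119 without LH replicate 1. IGFBP7 is also abundant in pericytes and endothelium and is itself on the list of pericyte, smooth muscle and myoepithelial markers. The other 6 markers of that list with a symbol summed to 280, 360 and 261 CPM in the positive and 275, 356 and 278 CPM in the zero cells, nearly level between the states.

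Other members of that family and the hormone receptors did not pass. IGFBP5 stood at 41.7, 216 and 118 against 84.9, 375 and 129 CPM, lower in 3 of 3 libraries (adjusted p = 0.0875). IGFBP3 and IGFBP4 had log2 changes of -0.13 ± 0.10 and 0.32 ± 0.17 (SE). The growth hormone receptor GHR, which drives hepatic and stromal IGF1 production, had a log2 change of 0.10 ± 0.09 (SE). The glucocorticoid receptor NR3C1 had one of 0.01 ± 0.09 (SE), with levels of 374 to 575 CPM in the positive cells.

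BHLHE40, a transcriptional repressor linked to the circadian clock and to hypoxia, stood at 56.4, 67.1 and 73.8 CPM in the positive and 103, 113 and 119 CPM in the zero cells. The positive and zero values did not overlap. Without further scaling BHLHE40 stood at 202, 425, 396 and 414 CPM in the barcodes outside the gate, LH before LL. That was above its level in either fibroblast state of every library. Its log2 change was -0.74 ± 0.12 (SE), 1.67-fold lower, with an adjusted p of 0.0136. The call was lost in DESeq2 (adjusted p = 0.109), without LH replicate 1 (0.0530) and without LL replicate 1 (0.0637).

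**Figure D3:**
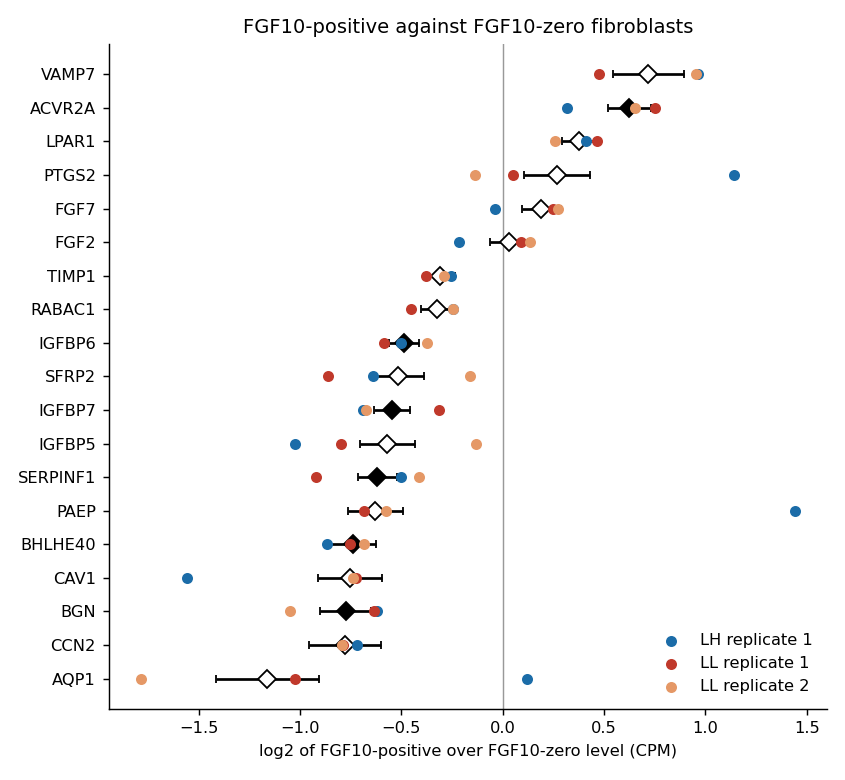
Log2 ratio of the level in FGF10-positive over FGF10-zero fibroblasts for the 16 genes named by rule and for FGF7, FGF2 and PTGS2. Coloured points are the ratios of single libraries and diamonds the fitted log2 change ± SE, filled where the adjusted p is under 0.05; the 6 filled diamonds have all 3 libraries on one side, while PTGS2, PAEP and AQP1 have LH replicate 1 apart from the LL libraries.

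The other fibroblast growth factors and the marker receptors stood close to or a little above their level in FGF10-zero cells. Of the 4 fibroblast growth factor genes with a symbol, FGF10 chose the cells, and the other 3 had log2 changes above 0 with none past the threshold. FGF7 stood at 282, 179 and 228 CPM in the positive and 289, 151 and 189 CPM in the zero cells, higher in both LL libraries and slightly lower in LH replicate 1, with a log2 change of 0.19 ± 0.09 (SE) and an adjusted p of 0.466. FGF2 stood at 348, 316 and 275 against 405, 297 and 251 CPM (adjusted p = 0.936). FGF12, an intracellular member of the family, stood at 51.5, 27.1 and 43.3 against 23.5, 24.9 and 31.9 CPM, higher in 3 of 3 libraries (adjusted p = 0.470). At 2000 UMIs per cell, FGF7 was seen in 27.2%, 27.2% and 32.1% of FGF10-positive and 30.9%, 22.4% and 26.9% of FGF10-zero fibroblasts.

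LPAR1 stood at 486, 374 and 310 CPM in the positive and 365, 271 and 259 CPM in the zero cells. It was higher in 3 of 3 libraries, 1.30-fold, with a log2 change of 0.38 ± 0.09 (SE), but did not pass the threshold (adjusted p = 0.0711). At 2000 UMIs per cell it was seen in 53.1%, 48.0% and 42.2% of FGF10-positive against 45.5%, 36.1% and 36.2% of FGF10-zero fibroblasts. With doublet calls left out its adjusted p was 0.0401.

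PTGS2 did not pass the threshold, and its level in the positive relative to the zero cells varied by library. It stood at 569, 313 and 177 CPM in the positive and 258, 302 and 194 CPM in the zero cells of LH replicate 1, LL replicate 1 and LL replicate 2. LH replicate 1 was more than 2 times higher in the positive cells, while the LL libraries showed little difference. Of the 232 PTGS2 UMIs in the FGF10-positive cells of LH replicate 1, 51.3% lay in 5 cells. The share of cells with PTGS2 did not follow the sum there, at 24.7% in positive and 26.8% in zero cells after thinning. The log2 change over 3 libraries was 0.27 ± 0.16 (SE, adjusted p = 0.575), and the stage difference of that change was -1.17 (adjusted p = 0.0888).

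Matrix proteases and their inhibitors were tested through 9 genes, none of which passed in either direction, with a median log2 change of -0.0002. TIMP1, an inhibitor of matrix metalloproteinases, stood at 991, 671 and 609 against 1182, 873 and 743 CPM, lower in 3 of 3 libraries (adjusted p = 0.0937). TIMP2, also an inhibitor, stood at 1906, 1137 and 1402 against 1647, 1634 and 1744 CPM, lower in the LL libraries and higher in LH replicate 1 (adjusted p = 0.447). MMP2 and MMP14, an enzyme that activates MMP2 at the cell surface, had log2 changes of 0.00 ± 0.09 and 0.23 ± 0.15 (SE).

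No gene of the lipid or stress lists passed. Of 9 tested adipocyte and lipid genes, 6 lay above 0, against 50.3% of all tested genes, with a median of 0.09 and 0 past the threshold. PPARG, the nuclear receptor that drives adipocyte differentiation, stood at 204, 236 and 189 CPM in the positive and 184, 163 and 164 CPM in the zero cells, higher in 3 of 3 libraries (adjusted p = 0.184). At 2000 UMIs per cell PPARG was seen in 30.9%, 33.6% and 28.9% of FGF10-positive against 26.8%, 25.1% and 24.8% of FGF10-zero fibroblasts. Of 7 tested immediate early and heat shock genes, which tissue dissociation can induce, 6 lay below 0, against 49.7% of all tested genes, with a median of -0.17. FOS stood at 2450, 2279 and 2200 against 2187, 2440 and 2411 CPM.

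Of the remaining genes named for their low p, VAMP7, a vesicle fusion protein, stood at 56.4, 50.5 and 57.4 against 28.9, 36.4 and 29.7 CPM (adjusted p = 0.0937), with every positive value above every zero value. RABAC1, a protein of vesicle transport, stood at 706, 596 and 710 against 839, 816 and 843 CPM, with every positive value below every zero value (adjusted p = 0.102). CAV1, the main protein of caveolae, stood at 4.91, 46.2 and 36.5 against 14.5, 76.3 and 60.9 CPM (adjusted p = 0.0529). AQP1, a water channel, stood at 19.6, 18.5 and 11.2 against 18.1, 37.6 and 38.5 CPM, lower in the LL libraries only (adjusted p = 0.0605). The milk protein gene PAEP, beta-lactoglobulin, stood at 4.91, 92.4 and 47.7 against 1.81, 149 and 71.2 CPM (adjusted p = 0.0578). In LL replicate 1 a single FGF10-zero cell held 610 of its 996 UMIs, and PAEP was seen in 24.3% of FGF10-positive against 15.7% of FGF10-zero cells there, against the direction of the sums.

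Only 398 of the 8865 genes tested carried a symbol. Likewise, most calls belonged to genes that the files give by identifier alone, 48 of the 54. The largest rises among those of at least 20 CPM were ENSOARG00000003370, at 181, 188 and 220 against 116, 79.3 and 158 CPM (log2 0.83 ± 0.14, SE), and ENSOARG00000012241, at 189, 307 and 157 against 110, 133 and 139 CPM (0.77 ± 0.16). In LL replicate 1 the latter was seen in 43.8% of FGF10-positive and 27.3% of FGF10-zero cells. The largest falls rested on few FGF10-zero cells. ENSOARG00000010041 stood at 0, 12.9 and 32.8 CPM in the positive against 548, 40.1 and 468 CPM in the zero cells, and the 303 UMIs in FGF10-zero cells of LH replicate 1 came from 5 cells. ENSOARG00000017490 stood at 2.45, 17.2 and 3.73 against 32.5, 37.4 and 184 CPM, and was seen in 1.18%, 2.64% and 1.32% of the positive cells.

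The number of calls depended on the libraries and on the block. It was 17 without LH replicate 1, 48 without LL replicate 1 and 111 without LL replicate 2, and without the ewe in the fit it was 0, with 206 genes at an unadjusted p under 0.05. Against FGF10-zero cells matched in total UMIs it was 44, of which 32 were among the 54.

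The levels were also read by the number of FGF10 UMIs a fibroblast held, as a description, in CPM without further scaling. In LL replicate 1, IGFBP6 stood at 1913 CPM in fibroblasts with 0 FGF10 UMIs, 1628 with 1, 1333 with 2 and 1005 with 3 or more. In LL replicate 2 the values were 1693, 1362, 1467 and 1174, and in LH replicate 1 they were 1475, 943, 615 and 1240. These 3 libraries had a lower level in every class with FGF10 than at 0, and of them only LL replicate 1 stepped down throughout. LH replicate 2 went the other way, at 2176 CPM in its 22 cells with 0 UMIs and 3274 CPM over its 3 FGF10-positive cells. LPAR1 went the other way: 337, 385, 449 and 500 CPM in LH replicate 1, 272, 334, 419 and 448 in LL replicate 1, and 269, 305, 293 and 378 in LL replicate 2. The level at 3 or more was the highest class of LPAR1 in all 3 libraries.

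SERPINF1 in LL replicate 1 stood at 843, 532, 565 and 332 CPM over the 4 classes, and in LL replicate 2 at 722, 513, 662 and 509. BGN in LL replicate 2 stood at 106 CPM at 0 and at 51.1, 51.8 and 52.6 CPM in the classes with FGF10, with no step between those. In LH replicate 1 the class with 2 FGF10 UMIs held 13 cells, so its values are the least certain. TIMP2 in LL replicate 1 stood at 1641, 1512, 1176 and 854 CPM, while in LH replicate 1 it was highest at 3 or more, at 2062 CPM.

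**Figure D4:**
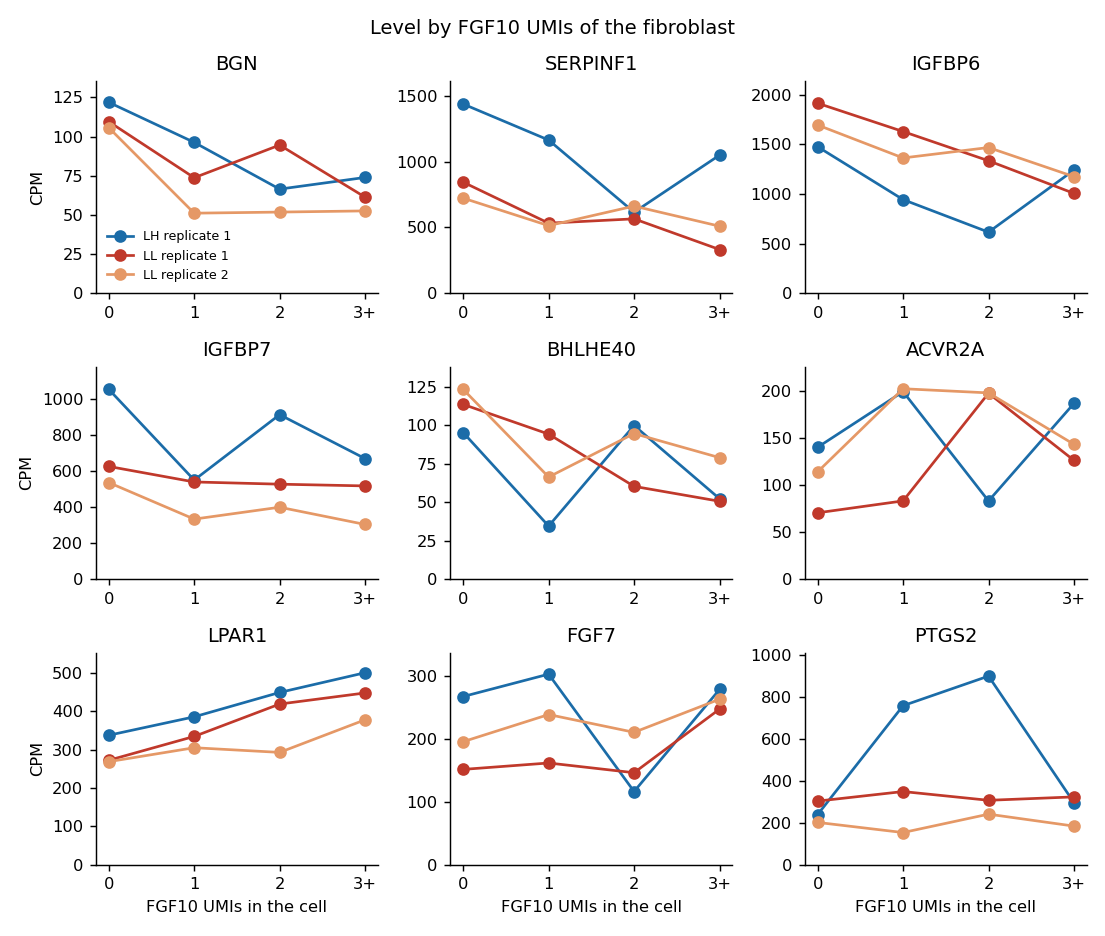
Level in CPM without further scaling (y axis) of 9 genes in fibroblasts with 0, 1, 2 and 3 or more FGF10 UMIs (x axis), 1 line per library. IGFBP6 is lower in each class with FGF10 than at 0 in all 3 libraries, and LPAR1 is highest at 3 or more.

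The stage comparison asked whether FGF10-positive fibroblasts of late lactation differ from those of the LH ewe. It set 2 LL libraries against LH replicate 1, so the single LH sample was assumed to vary as the LL libraries do. Of 9324 genes tested, 7 passed (0.0751%), 2 higher (0.0215%) and 5 lower (0.0536%) in LL, and none of the 413 with a symbol. At an unadjusted p under 0.05 there were 885 genes, 9.49% of those tested. With doublet calls left out no gene passed, and in cells thinned to 2000 UMIs 104 did, so the number of stage calls was not stable. The genes below with a symbol are therefore given as values, and ewe and stage cannot be told apart for LH.

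SERPINF1 stood at 1107 CPM in LH replicate 1 and at 449 and 531 CPM in the LL libraries, log2 -1.18 ± 0.21 (SE, adjusted p = 0.124). Among the fitted libraries the FGF10-zero fibroblasts were also highest in LH replicate 1, at 1554 against 840 and 696 CPM. Their LL libraries stood in the other order. In LH replicate 2, without further scaling, SERPINF1 stood at 1159 CPM in the 3 positive cells and 2421 CPM in the zero cells. PLAU, the urokinase that turns plasminogen into plasmin, stood at 4.95 CPM in LH replicate 1 and 54.3 and 69.6 CPM in LL. In LH replicate 1 that was 2 UMIs, against 179 in LL, a ratio of 13.8 with a 95% counting interval of 3.78 to 115 (adjusted p = 0.124). CAV1 also had 2 UMIs there, against 124 in LL, a ratio of 9.59 with an interval of 2.60 to 80.1 (adjusted p = 0.171). The LH ewe left out of the fit was too sparse to show either level: its 3 FGF10-positive cells held 0 UMIs of PLAU and 1 of CAV1. Its 22 FGF10-zero fibroblasts held 5 and 6 UMIs, 72.0 and 86.5 CPM without further scaling, with 5 of the 6 CAV1 UMIs in 1 cell.

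MX1, an interferon-induced antiviral protein, stood at 12.4 CPM in LH replicate 1 and 64.9 and 83.3 CPM in LL (log2 2.57 ± 0.49, SE, adjusted p = 0.135). ISG15, also induced by interferon, had no UMI in the FGF10-positive cells of LH replicate 1 and stood at 10.6 and 22.7 CPM in LL. It was seen in 2.64% and 2.37% of the LL cells, and 5 cells held 12 of 17 and 25 of 30 of its UMIs there, so a gene this rare could not be told from absent among 85 cells. IFNG went the other way, at 76.8 CPM in LH replicate 1 against 26.2 and 20.4 CPM. The lymphocyte gene CD52 did too, at 109 against 23.1 and 33.3 CPM, with adjusted p of 0.171 and 0.124. In LH replicate 1, 5 of the 85 cells held 87.1% of the IFNG UMIs and 75% of those of CD52. Outside the gate IFNG stood at 704 CPM in LH replicate 1 and at 153 and 94.3 CPM in LL, and CD52 at 880 against 228 and 116 CPM. The part of those other cells in the values was not tested.

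The stage fit did not leave out the mitochondrial genes, and 4 were picked there for a low p. These are ND1, ND2 and ND3 of respiratory complex I and ATP8 of the ATP synthase. Because the limit on mitochondrial UMIs used them, their values are description and no test result is drawn from them. ND2 stood at 6015 CPM in LH replicate 1 and at 2861 and 2130 CPM in LL. ND3 stood at 3163 against 1466 and 1629 CPM, ND1 at 3488 against 1819 and 1977 CPM, and ATP8 at 436 against 202 and 173 CPM. The median share of mitochondrial UMIs per cell was 5.24% in LH replicate 1 and 3.80% and 3.14% in LL, and 1.50% in the 3 cells of LH replicate 2. The 2 LH ewes thus stood on opposite sides of the LL ewes.

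The fibroblast growth factors and marker genes did not pass between stages. FGF7 stood at 285 CPM in LH replicate 1 and 182 and 231 CPM in LL (adjusted p = 0.621), LPAR1 at 491 against 379 and 314 CPM (0.559), and PTGS2 at 575 against 317 and 179 CPM (0.302). Among the 3 fitted libraries all 3 genes were highest in LH replicate 1, while the 3 cells of LH replicate 2 held more FGF7 and no PTGS2, as given above. IGFBP5 stood at 42.1 against 219 and 120 CPM, lowest in LH replicate 1 (adjusted p = 0.256). Over the matrix list all 6 tested genes lay below 0, as did 47.9% of all tested genes, with a median of -0.43 against 0.03 over all genes. Of the 8 tested luminal epithelial markers, 7 lay above 0 in LL, against 52.1% of all tested genes, with a fitted median of 4.70. PAEP, for one, had 2 UMIs in LH replicate 1 and 214 in LL, a ratio of 16.6 with a 95% counting interval of 4.53 to 138. These markers are near 0 in LH replicate 1, so that median depends on the prior count, and their part in the stage values was not tested. One LH library placed every gene above, between or below the LL libraries, and 40.1% of all genes had both LL values above it and 37.0% both below.

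The genes with a call had identifiers only. ENSOARG00000002980 had no UMI in the FGF10-positive cells of either LH library and stood at 102 and 109 CPM in LL. The 95% counting interval of its ratio of LL over LH replicate 1 starts at 12.8. It had no UMI in the 145 and 22 FGF10-zero fibroblasts of the LH libraries either, whereas 34.7% and 29.0% of those in LL held it. ENSOARG00000014814 stood at 14.9 against 288 and 242 CPM, but at 807 CPM without further scaling in the FGF10-zero cells of LH replicate 2, where 53 of its 56 UMIs lay in 5 cells. ENSOARG00000009960 stood at 124 against 1.25 and 5.30 CPM and ENSOARG00000001568 at 131 against 3.75 and 10.6 CPM. LH replicate 2 did not show the high levels of the last pair. Its 3 FGF10-positive cells held no UMI of either, with 3 UMIs worth 205 CPM. Without further scaling its 22 FGF10-zero cells held none of ENSOARG00000009960, with 3 UMIs worth 43.2 CPM, against 162 CPM in LH replicate 1, and 43.2 CPM of ENSOARG00000001568 against 174 CPM.

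**Figure D5:**
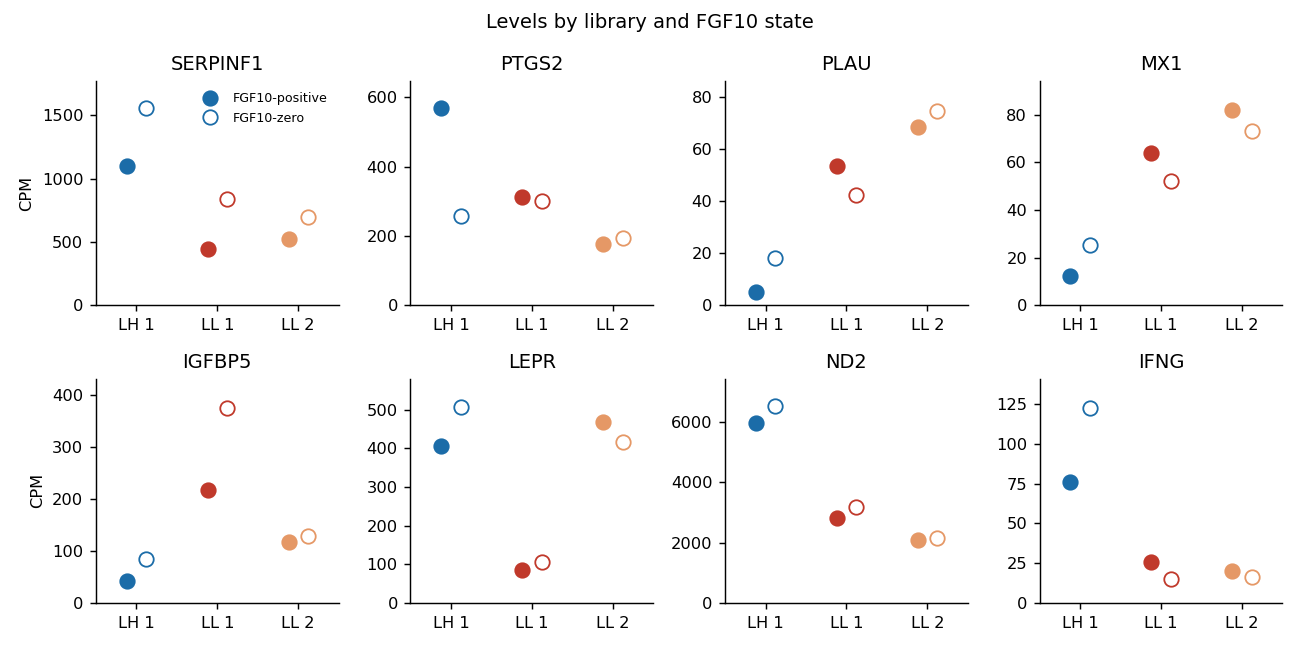
Level in CPM of 8 genes in FGF10-positive (filled) and FGF10-zero (open) fibroblasts of LH replicate 1 and LL replicates 1 and 2, 1 point per library and state. Of the 3 libraries drawn, SERPINF1 and ND2 are highest in LH replicate 1 in both states, PLAU and MX1 are lowest there, and LEPR is lowest in LL replicate 1.

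Whether the difference between FGF10-positive and FGF10-zero fibroblasts itself changed with stage was tested as an interaction. None of 8865 genes passed in edgeR, with 604 (6.81%) at an unadjusted p under 0.05, and DESeq2 also gave 0, with 38. Of the 398 genes with a symbol, 28 (7.04%) were at an unadjusted p under 0.05. The counts were 46 against depth-matched cells and 44 with doublet calls left out. TIMP2 had the difference of -0.63 (adjusted p = 0.394) and SPARC of -0.66 (adjusted p = 0.592). With 1 LH library these values compare that ewe with the LL ewes.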

How the data were processed

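Single-cell RNA was measured in mammary tissue of 4 ewes. The deposited matrices hold UMI counts per gene and barcode; per the submitters' processing notes Cell Ranger 5.0.1, STAR and Seurat 3.2.0 were used, while per the file headers the matrices were written by Cell Ranger 7.2.0. The genome build is not given in the sources used here. Barcodes start at 500 UMIs. Of 20150 genes, 774 carry a symbol.

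Counts of FGF10-positive and of FGF10-zero fibroblasts were summed per library (435345 to 6679615 UMIs), libraries with under 5 cells in a state left out, and tested with edgeR 4.0.16 (quasi-likelihood, TMM, filterByExpr with a minimum count of 10, R 4.3.3) with the ewe as block, which is given by both states coming from 1 library; p-values were adjusted by Benjamini-Hochberg. SE is the log2 change over the square root of F. DESeq2 1.42.0 was an alternative. Scripts were tested on simulated data. Nothing says that replicates of a stage share a batch. The members and lists were chosen with earlier results of these data known.

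Named were genes with a symbol, an adjusted p under 0.05, at least 20 CPM and 1 direction in every library with at least 20 positive cells, up to 15 each way between states and 10 between stages; where fewer than 10 qualified, also the 10 of lowest p, and members of fixed lists. Doublets were not removed in the main analysis; as an alternative the 5% of barcodes with the highest Scrublet scores per library were left out, which held 2, 0, 25 and 21 of the FGF10-positive cells. The gated shares carry exact intervals from 25 to 2078 cells.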

Additional observations from a re-analysis of the deposited data

Results flagged for a closer look

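In LL replicate 1, FGF10 was also present in cells that no comparison above uses: 57 of 5718 cells without DCN, CD3E, EPCAM or C1QA carried it (0.997%, exact 95% interval 0.756 to 1.29%), at a median of 2614 UMIs. This stood above the 1 of 912 CD3E-positive cells without DCN in that library (0.110%, 0.00278 to 0.609%, median 2771 UMIs). It did not stand clear of the 6 of 785 EPCAM-positive cells without DCN in the same library (0.764%, 0.281 to 1.66%, median 8115 UMIs). The same share was 0.0932% in LH replicate 1, 0.243% in LH replicate 2 and 0.356% in LL replicate 2.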

How the results depend on the processing

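The 54 calls between FGF10 states became 97 in cells thinned to 2000 UMIs, 27 in DESeq2, 143 without doublet calls, 180 with every library of at least 1 cell, 259 with no filter on low counts and 0 with no replicate block; leaving out 1 library gave 17 to 111. The 7 stage calls became 48 with at least 2 FGF10 UMIs, 104 in thinned cells, 14 in DESeq2, 15 with RLE size factors, 66 with every library of at least 1 cell, 278 with no filter and 0 without doublet calls (766 genes at an unadjusted p under 0.05). The 0 interaction calls became 12 in cells of at least 1000 UMIs, 46 against depth-matched cells, 44 without doublet calls, 7 with every library and 7 with RLE size factors. The unfiltered fits tested more genes (16073 between states, 14523 between stages); the cause was otherwise not tested. The share of FGF10-positive cells among fibroblasts, LL minus LH, ranged from -12.7 to 12.3 points when 1 library was left out. The share among all kept barcodes stayed higher in LL under every setting run.

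The labels state no pairing of LH with LL ewes by replicate number. The deviations of same-numbered libraries had a correlation of 0.0026 over 7768 genes. LH replicate 2 entered with 3 cells and 14663 UMIs, too few for this value to decide whether the numbers pair ewes. A replicate block on the numbers left no residual degree of freedom with 5 cells per library. With every library of at least 1 cell, an alternative chosen after seeing the data, the block gave 12 stage calls. In that fit the log2 changes of ND1 and ND3, given as description, turned to 0.185 and 0.0799. Stage and interaction fits that leave out any of the 3 libraries in them were not run for want of residual degrees of freedom. Between states, 184 values of named genes under alternatives kept their direction and side of the threshold, 36 newly passed it and 19 no longer did. Between stages 83 kept both, 25 newly passed and 2 turned, with the mitochondrial genes counted among these values. Depth limits LH most, with 435345 UMIs in 85 positive cells of LH replicate 1 and 3 cells in LH replicate 2.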

Other observations

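LEPR, the leptin receptor, set the LL ewes apart from each other. In FGF10-positive fibroblasts it stood at 407 CPM in LH replicate 1, 85.6 CPM in LL replicate 1 and 468 CPM in LL replicate 2, and in FGF10-zero fibroblasts at 506, 107 and 417 CPM. It was seen in 56.5%, 15.6% and 49.2% of the FGF10-positive cells. In the 22 FGF10-zero cells of LH replicate 2 it stood at 144 CPM without further scaling (95% counting interval 69.1 to 265). That was 10 UMIs in 6 cells, against 468 CPM (414 to 526) in LH replicate 1. The 3 FGF10-positive cells of LH replicate 2 stood at 273 CPM (74.3 to 698). That interval holds the 381 CPM of LH replicate 1, so the positive cells do not set the LH ewes apart.

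DBP and NR1D1, transcription factors of the circadian clock, are given as values. DBP stood at 52.0 CPM in the FGF10-positive fibroblasts of LH replicate 1 and at 118 and 114 CPM in LL. NR1D1 stood at 0 against 16.2 and 20.4 CPM, and the 95% counting interval of its ratio of LL over LH replicate 1 starts at 2.15. Neither passed the threshold. The 3 cells of LH replicate 2 held 3 UMIs of DBP, 205 CPM without further scaling. The 95% counting interval of that value, 42.2 to 598 CPM, spans the LL levels. On the same scale DBP stood at 57.6 CPM in the 22 FGF10-zero cells of LH replicate 2. Those of LH replicate 1 stood at 71.8 CPM and those of LL at 150 and 133 CPM. NR1D1 was present in the FGF10-zero cells of LH replicates 1 and 2, at 6.68 and 14.4 CPM from 4 and 1 UMIs. In those of LL it stood at 22.9 and 26.6 CPM. BHLHE40, lower in FGF10-positive than FGF10-zero cells, stood at 57.0 against 68.0 and 74.9 CPM. ABHD5, an activator of triglyceride breakdown, stood higher in LH replicate 1, at 52.0 against 13.7 and 9.84 CPM (adjusted p = 0.193).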
